A study of Mus musculus with 8 samples.

Results

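The probes of 10 genes that fold proteins in the endoplasmic reticulum (ER) or sense unfolded ones there were compared between C2C12 cells with and without silencing of Pvt1. C2C12 is an established mouse myoblast line that grows as single cells and can fuse into myotubes. Pvt1 is a long non-coding RNA, and the comparison asks how the transcriptome of muscle cells moves when it is lowered. Both groups were proliferating cultures at passage 10. The 4 silenced cultures had been transfected with antisense LNA GapmeRs against Pvt1, short oligonucleotides that direct cleavage of their target RNA. The labels name a pair of GapmeRs, Pvt1_1 and Pvt1_3, without saying which culture received which. The 4 negative controls had received negative control GapmeRs with the same lipid reagent, so both groups carried the transfection itself. No culture left untransfected was analysed here. Each culture is a biological replicate hybridised to its own one-colour array, and the replicates of a group come from a single cell line.

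The members were found by their gene symbol on the array: Hspa5, Hsp90b1, Sdf2l1, Calr, Canx, Pdia4, Pdia6, Xbp1, Atf6 and Ern1. They are 10 of 32631 gene names and 20 of 56605 probes, and 17 of the 20 probes had enough values to be tested, as had 28649 of all probes. The accessions of 15 member probes were found in the RefSeq gene table, and all 15 carried the same symbol there. Values are log2 signals after quantile normalization, each probe is named by the base of its transcript at which it starts, and a change is silenced minus control. A probe was called when its adjusted p in limma was under 0.05. The probe with the highest mean over the 8 arrays stood for a gene where 1 value a gene was needed.

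Proteins that enter the ER are folded there by chaperones and by enzymes that form disulfide bonds. Hspa5 (BiP) is the Hsp70 of this compartment and Hsp90b1 (GRP94) its Hsp90, while calreticulin and calnexin hold glycoproteins through their sugars. When unfolded proteins accumulate, the membrane sensors Ern1 (IRE1) and Atf6 are released from Hspa5 and signal to the nucleus. Ern1 splices the mRNA of Xbp1, and the spliced Xbp1 protein and the cleaved Atf6 protein raise the genes of the chaperones. Muscle cells use the same system, and the ER of muscle also stores the calcium that drives contraction. The arrays measured mRNA only, and neither the splicing of Xbp1 nor the cleavage of Atf6 was measured.

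Pvt1 was lower on every silenced array. Its brightest probe averaged 9.86 ± 0.30 on the controls (SD, n = 4) and 7.004 ± 0.63 on the silenced arrays (SD, n = 4), a change of -2.86 (SE 0.32, limma adjusted p 0.000682). A second Pvt1 probe was well above background on all 4 controls and on no silenced array, which gives a signal at least 5.41-fold higher in controls. All arrays lay on 1 slide with 1 scan, with 3 of 4 controls in its upper row and 3 of 4 silenced arrays in its lower row. Spots positive and significant made up 58.8% to 62.5% of each array except silenced replicate 4, which had 51.6%. Control replicate 3 and silenced replicate 4 stood apart from their groups. On control replicate 3, 6 of 17 member probes lay over 1 log2 below the mean of the other controls, against 8.65% of all probes. On silenced replicate 4 it was 1 of 17 member probes, against 26.6% of all probes, and the median deviation of all probes from the other silenced arrays was -0.69. Of 6 myoblast markers, 5 were well above background on all 8 arrays and Myf5 on none. Of these 6, 3 were called lower after silencing, with both quantile and loess normalization: Myod1 (-1.95), Des (-1.35) and Cdh15 (-0.86). Over all genes 13.9% were lower with quantile and 14.2% with loess. Itga7 (-0.18) and Vcam1 (0.02) were not called with either. Myf5 (0.94) was not called with quantile and was called higher with loess (1.19). Of 5 tested markers of differentiated muscle, 2 were lower, Tmem8c (-2.04) and Acta1 (-1.88), against 13.9% of all genes. Tmem8c was well above background on 2 of 4 silenced arrays. The other tested ones, Myh3 (-0.58), Tnnt3 (-0.26) and Myog (0.13), were not called. The log2 of the summed signal of 8 liver markers ran from 9.71 to 10.71 in controls and from 12.13 to 12.48 after silencing, with 1 of 8 well above background on all controls and 5 of 8 on all silenced arrays. That of 8 pancreas markers ran from 11.29 to 11.88 and from 12.02 to 12.98 (5 of 8 never well above background); Cela1, which changed by 0.87 and was not called, accounts for most of that sum, and Ctrb1 changed by -0.80, and that of 4 macrophage markers from 10.76 to 10.86 and from 11.92 to 12.72 (Lyz2 never well above background). Of these 4, Cd68 was called higher (1.84) and Csf1r lower (-1.12). The part of these marker signals in the results was not tested. In a bulk culture, fewer cells with a transcript and less of it in each cell cannot be told apart.

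The promoters of these genes are printed first because 5 of them hold the ER stress response element (ERSE), the sequence through which cleaved Atf6 and spliced Xbp1 are known to act together with NF-Y. The element was searched as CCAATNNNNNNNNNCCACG on both strands, from 250 bases before to 50 bases after the annotated start of each gene in RefSeq (GRCm38.p6). Of the 9 members with a promoter entry, 5 held it, against 37 of 27025 genes with a promoter entry of the same length (0.137%) and 39 of all 32851 such promoters (0.119%). The stretches below run 5′ to 3′ along the strand of the gene, with the whole element in capitals and 10 bases on either side of the outermost ones.
Hspa5 (chr2:34772015-34772053, plus strand): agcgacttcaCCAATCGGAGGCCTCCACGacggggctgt
Hsp90b1 (chr10:86705523-86705666, minus strand): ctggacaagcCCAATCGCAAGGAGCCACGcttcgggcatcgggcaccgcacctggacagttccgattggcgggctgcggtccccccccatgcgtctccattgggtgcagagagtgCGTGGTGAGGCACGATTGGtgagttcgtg
Calr (chr8:84847065-84847103, minus strand): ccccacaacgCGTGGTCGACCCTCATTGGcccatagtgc
Canx (chr11:50325790-50325828, minus strand): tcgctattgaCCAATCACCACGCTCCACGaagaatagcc
Pdia6 (chr12:17266481-17266519, plus strand): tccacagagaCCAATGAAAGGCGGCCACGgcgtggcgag
Hsp90b1 held 2 elements, 1 on each strand, and the element of Calr lay on the opposite strand. Those of Hspa5, Canx and Pdia6 lay on the strand of the gene. The windows of Sdf2l1, Pdia4, Xbp1 and Ern1 did not hold these letters, and Atf6 had no promoter entry. The related element ERSE-II, which is ATTGG and CCACG with a single base between them, was found in 0 of 9 members and in 12 of 27025 genes (0.0444%). CCACG alone, which is also the end of both elements, occurred in 8 of 9 members and in 35.5% of all genes. A match of letters is a description and not evidence that a factor binds there.

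**Figure D1:**
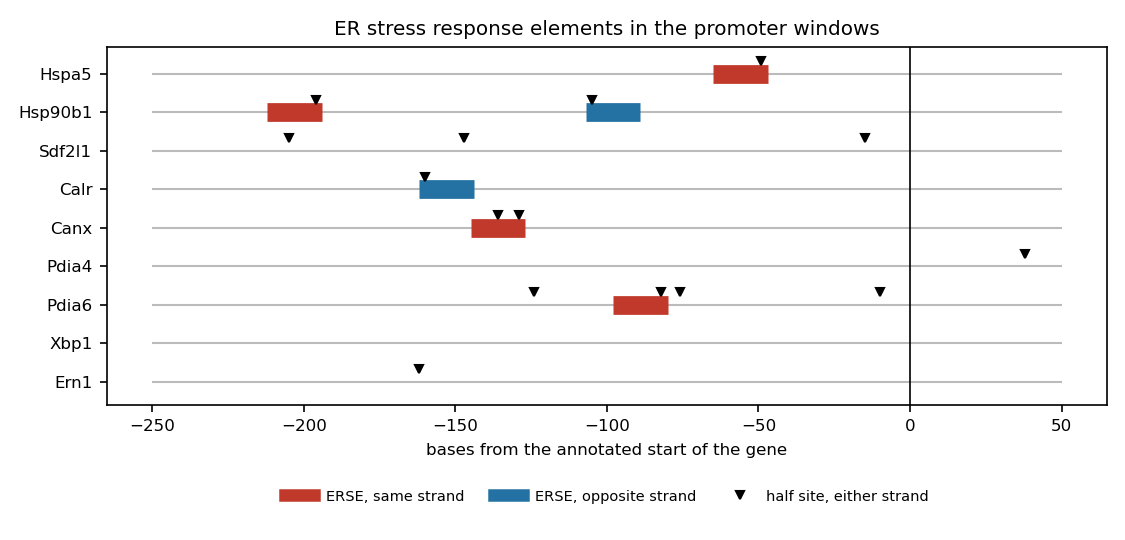
Positions of the ER stress response element in the promoter windows of the 9 members with an entry, as bases from the annotated start of each gene. Bars are whole elements on the same or the opposite strand as the gene and triangles are matches to CCACG on either strand; Hsp90b1 has 2 bars and 4 other genes have 1.

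Of the 17 member probes tested, 5 were called lower after silencing and 0 higher, with 12 not called. Over all probes 18.4% were called lower and 4.79% higher. The 5 lower probes belong to 4 genes: Hspa5 with 2 probes, and Hsp90b1, Calr and Xbp1 with 1 each. Read by the brightest probe, 2 of 10 genes were lower, Hsp90b1 and Calr, 0 were higher and 8 were not called, against 13.9% lower and 6.09% higher over all 17694 genes. In limma 6 of the 17 member probes had an unadjusted p under 0.05, against 36.3% of all probes. Those 6 had a change below 0, where 27% of all probes had both such a p and a change below 0, so 0 member probes were higher without adjustment too, and the methods' t-test also called 0 higher. The median change of the 10 genes was 0.11 and that of all genes was -0.08. The median change of all probes was -0.19 with the settings used here and -0.20 with a shift to the 75th percentile, but 0.02 with cyclic loess, 0.0067 with quantile normalization without the mask of dim spots and 0.0066 in the authors' series table. With loess, 18.4% of all probes were called lower and 18.9% higher, and among the member probes 3 were lower and 3 higher; without the mask, and in the series table, 1 was lower and 3 higher. Over all probes 8.46% were lower and 8.82% higher without the mask, and 9.75% and 9.86% in the series table.

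**Figure D2:**
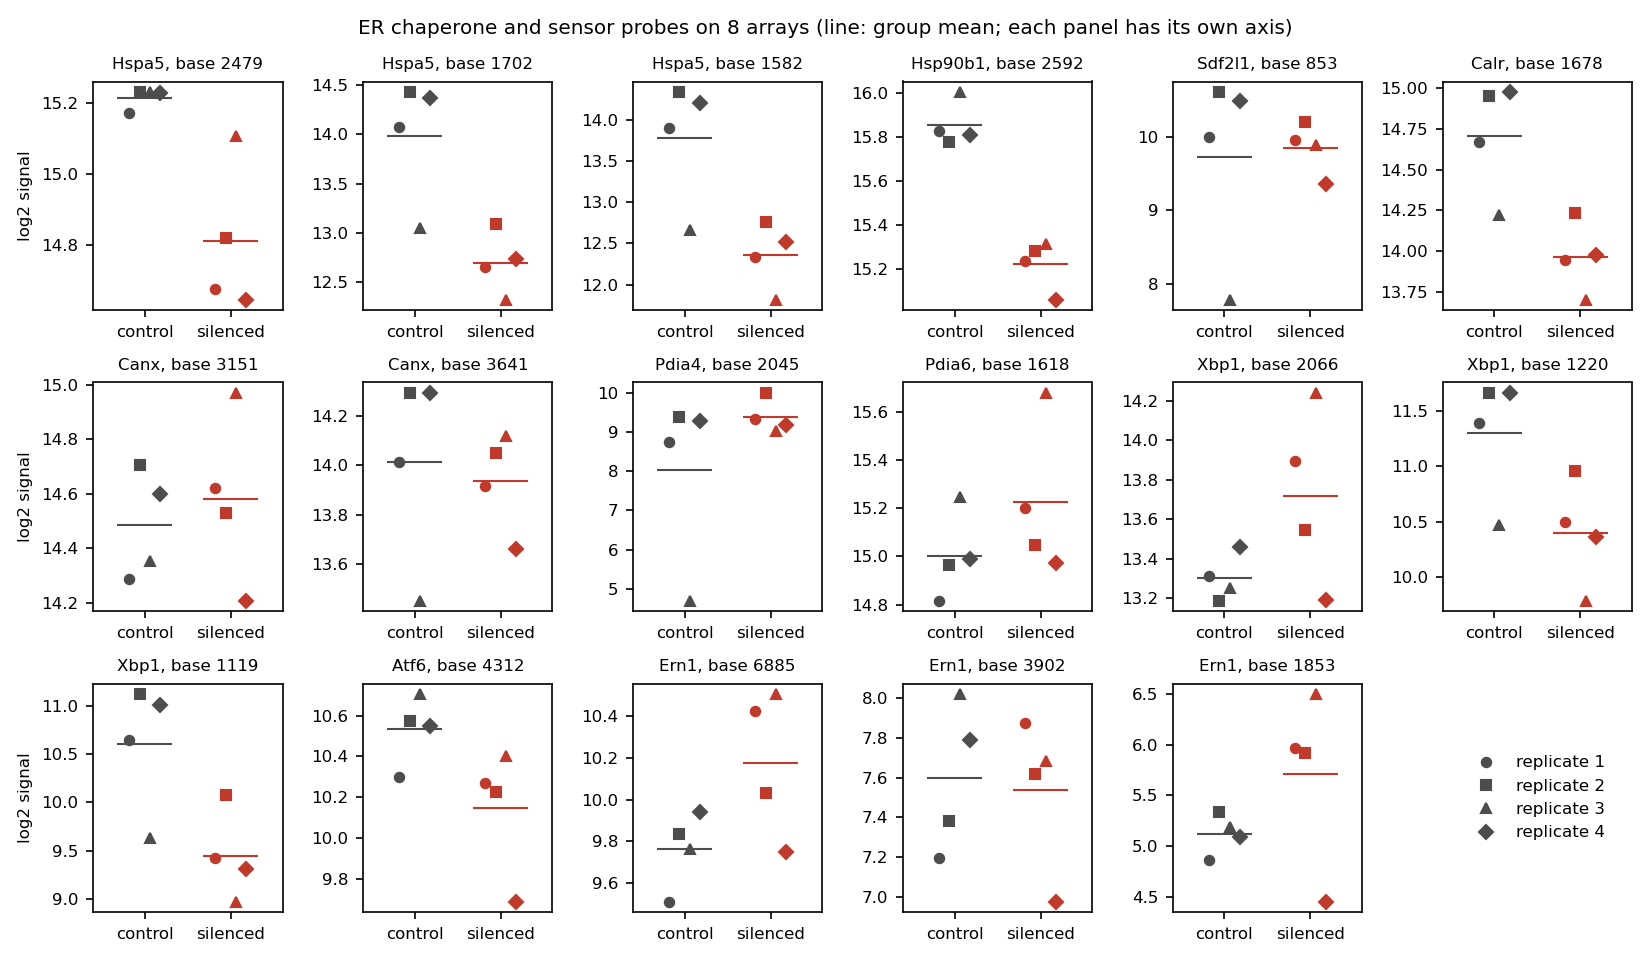
Log2 signal (quantile normalized) of the 17 tested member probes on each of the 4 control and 4 silenced arrays, with the group mean as a line and 1 marker shape per replicate number; each panel has its own axis. The silenced arrays lie below all controls for Hsp90b1 and for the Hspa5 probe at base 2479, and control replicate 3 is the lowest control for Pdia4 (4.69) and Sdf2l1 (7.78).

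Hspa5, the Hsp70 chaperone that also keeps the sensors inactive, has 3 probes on the same transcript. They are shown by their first 30 of 60 bases, since the probes gave different changes, and no base is marked with capitals.
Hspa5, base 1582: atcttctccacggcttccgataatcagcca
Hspa5, base 1702: gctccccgtggagttccccagattgaagtc
Hspa5, base 2479: catgcacatgtggtgtaggaacttttttct
In mm9, the build of the array's design, they map to the plus strand of chromosome 2 at 34630699 to 34631075, 34631136 to 34631195 and 34631913 to 34631972. The probe at base 1582 spans more of the genome than its own length, so it crosses an exon junction.

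At base 1582 the controls measured 13.91, 14.34, 12.67 and 14.20, and the silenced arrays 12.33, 12.76, 11.81 and 12.52. The change was -1.43 (SE 0.38, limma adjusted p 0.0237), to 37.2% of control. The groups overlapped through control replicate 3, the lowest control, which lay below silenced replicate 2. At base 1702 the controls measured 14.08, 14.43, 13.05 and 14.36, and the silenced arrays 12.65, 13.09, 12.32 and 12.73. The change was -1.28 (SE 0.32, adjusted p 0.0203), to 41.2% of control, with the same single overlap. Relative to the median of all probes these changes were -1.23 and -1.09. Without control replicate 3 they were -1.81 and -1.60.

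At base 2479, near the 3′ end, the controls lay within 15.17 to 15.23 and the silenced arrays measured 14.68, 14.82, 15.11 and 14.65. All 4 silenced arrays were below all 4 controls, by an exact two-sided permutation test at p 0.0286, the smallest that 4 against 4 arrays can give. Over all probes 28.2% did not overlap between the groups. The change of -0.40 (SE 0.19) was not called by limma (adjusted p 0.149), and it was -0.21 relative to the median of all probes. This is the brightest Hspa5 probe and the one that stood for the gene. When a gene was instead read by averaging its probes, Hspa5 fell by 1.04 on the log2 scale (adjusted p 0.022) and 3 member genes were lower, Hspa5, Hsp90b1 and Calr. Read by the probe nearest the 3′ end, Hspa5 kept the probe at base 2479 and was not called. Only Hsp90b1 and Calr were lower among the member genes in that reading.

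Hsp90b1, the ER Hsp90, which folds among others integrins and Toll-like receptors, has 1 probe at base 2592 (mm9, chromosome 10, 86153693 to 86153752, minus strand). The controls measured 15.83, 15.78, 16.00 and 15.81 and the silenced arrays 15.23, 15.28, 15.31 and 15.06. The groups did not overlap and were each within a narrow range. The change was -0.63 (SE 0.18, limma adjusted p 0.0291), to 64.5% of control and -0.44 relative to the median of all probes. It kept its call with cyclic loess, at -0.55 (adjusted p 0.00548), the only member gene called lower there when read by its brightest probe.

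Calr, the soluble lectin chaperone that also buffers ER calcium, has 1 probe at base 1678 (mm9, chromosome 8, 87366192 to 87366251, minus strand). The controls measured 14.67, 14.95, 14.22 and 14.98 and the silenced arrays 13.95, 14.23, 13.70 and 13.97. Control replicate 3 was again the lowest control, and silenced replicate 2 lay just above it. The change was -0.74 (SE 0.23, limma adjusted p 0.0446), to 59.7% of control and -0.55 relative to the median of all probes. With cyclic loess it was -0.55 and not called (adjusted p 0.069).

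Canx, the membrane-bound partner of Calr in the same lectin cycle, did not follow it past the threshold on either probe. At base 3151 the controls measured 14.29, 14.70, 14.35 and 14.60 and the silenced arrays 14.62, 14.53, 14.97 and 14.21, a change of 0.10 (SE 0.22, limma adjusted p 0.798). At base 3641 the controls ran from 13.45 to 14.29 and the silenced arrays from 13.66 to 14.12, a change of -0.08 (SE 0.24, adjusted p 0.857). The 95% intervals of these changes were -0.40 to 0.59 and -0.61 to 0.46, so moderate changes either way were not resolved. The difference between Calr and Canx was not tested.

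Pdia6 and Pdia4 are disulfide isomerases, and Pdia6 is also known to bind Ern1. Pdia6 at base 1618 measured 14.82, 14.96, 15.24 and 14.99 in controls and 15.20, 15.05, 15.68 and 14.97 after silencing. The change of 0.22 (SE 0.22, limma adjusted p 0.509) was within the spread between arrays, with an interval of -0.27 to 0.71. Pdia4 at base 2045 measured 8.74, 9.38, 4.69 and 9.27 in controls and 9.32, 9.99, 9.03 and 9.16 after silencing. Control replicate 3 was not well above background there, alone among the 8 arrays. The change was 1.36 (SE 0.91, adjusted p 0.316), and without control replicate 3 it was 0.24. Sdf2l1, a small ER protein that works with Hspa5 and its J-domain partners, was also low on that array. It measured 10.00, 10.62, 7.78 and 10.50 in controls and 9.96, 10.20, 9.89 and 9.36 after silencing. Its change of 0.13 (SE 0.56, adjusted p 0.898) turned to -0.51 without control replicate 3.

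Xbp1, the transcription factor whose mRNA is cut by Ern1, has 3 probes on 1 transcript, whose changes had opposite signs. Their first 30 of 60 bases are given for the same reason as those of Hspa5.
Xbp1, base 1119: aactcattcgttttggccatgtatacacca
Xbp1, base 1220: cctctaagctcttcagaagaggatcaccct
Xbp1, base 2066: ttcttgctagtgtagcttctagaaggtgct
They map in mm9 to the plus strand of chromosome 11, at 5424869 to 5424928, 5424970 to 5425029 and 5425816 to 5425875. At base 1119 the controls measured 10.64, 11.12, 9.64 and 11.004 and the silenced arrays 9.43, 10.08, 8.97 and 9.31. The change was -1.15 (SE 0.36, limma adjusted p 0.0453), to 44.9% of control, with an overlap between control replicate 3 and silenced replicate 2. At base 1220 the controls ran from 10.47 to 11.66 and the silenced arrays from 9.79 to 10.96, and the change of -0.90 (SE 0.34, adjusted p 0.0827) was not called. The brightest probe, at base 2066, gave the other sign. Its controls measured 13.31, 13.18, 13.25 and 13.46 and its silenced arrays 13.89, 13.54, 14.24 and 13.19, a change of 0.42 (SE 0.25, adjusted p 0.257). There 3 of 4 silenced arrays lay above all controls, and silenced replicate 4 lay among them. It was called higher with cyclic loess (0.62, adjusted p 0.0289), without the mask of dim spots (0.58, adjusted p 0.0308) and in the series table (0.56, adjusted p 0.0363), so no direction for the Xbp1 gene can be given from these probes.

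With the settings used here, no probe of the sensors was called. Atf6 at base 4312 measured 10.30, 10.58, 10.71 and 10.55 in controls and 10.27, 10.22, 10.40 and 9.69 after silencing. The silenced arrays were lower on average, with an overlap between control replicate 1 and silenced replicate 3, and the change was -0.39 (SE 0.22, limma adjusted p 0.233). The other Atf6 probe, on a shorter Ensembl transcript, was well above background on 1 control only and was not tested. Ern1 at base 6885 measured 9.51, 9.84, 9.76 and 9.94 in controls and 10.42, 10.03, 10.51 and 9.75 after silencing. Again 3 of 4 silenced arrays lay above all controls and silenced replicate 4 did not, with a change of 0.41 (SE 0.23, adjusted p 0.223). It was called higher with cyclic loess (0.62, adjusted p 0.00898), without the mask of dim spots (0.66, adjusted p 0.00577) and in the series table (0.65, adjusted p 0.00388). At base 3902 the change was -0.06 (SE 0.27, adjusted p 0.903). At base 1853 it was 0.59 (SE 0.39, adjusted p 0.312), but that probe was well above background on 0 controls and 1 silenced array. It too was called higher in those 3 settings, at 0.86, 0.94 and 0.95. The remaining 2 Ern1 probes, on short Ensembl transcripts, were never well above background and were not tested.

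**Figure D3:**
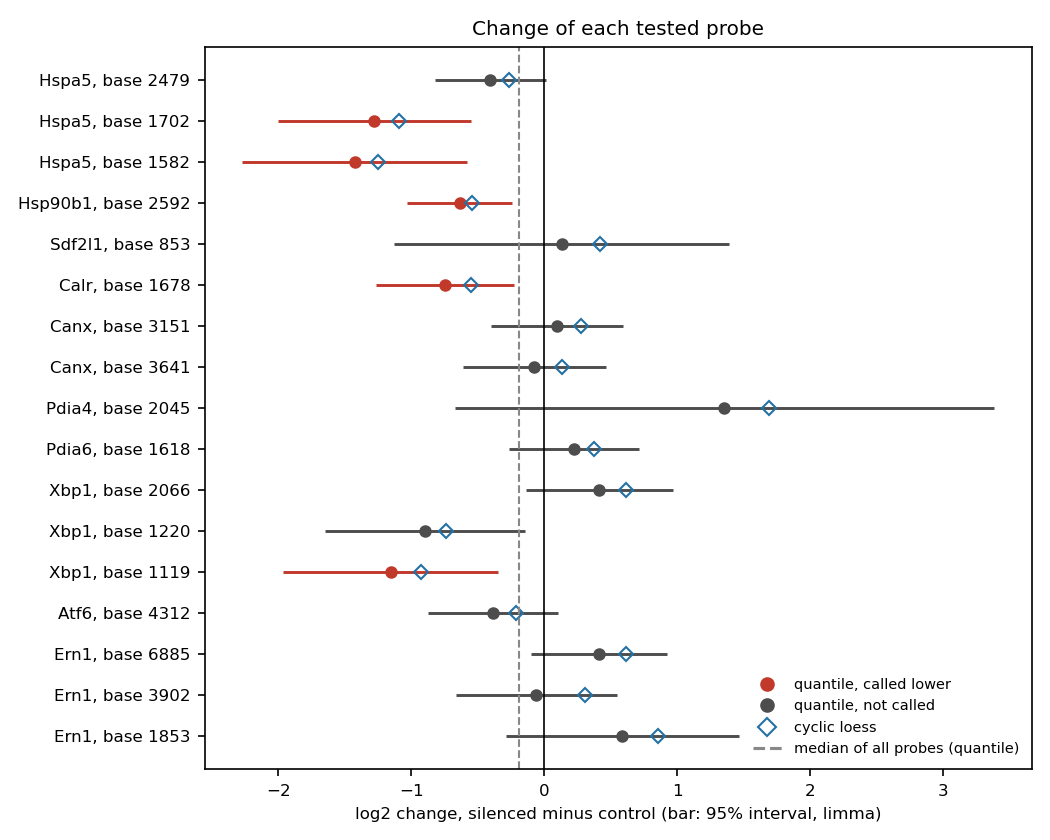
Log2 change, silenced minus control, of the 17 tested member probes with the 95% interval from limma after quantile normalization, and the change after cyclic loess as a diamond. The 5 probes called lower are red, the dashed line is the median of all probes (-0.19), and each diamond lies on the same side of 0 as its circle except for Canx at base 3641 and Ern1 at base 3902.

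The 5 calls changed with single arrays. With 1 array left out, Hspa5 at base 1702 lost its call without control replicates 1, 2 or 4 or silenced replicates 1 or 3 (changes of -1.25 to -1.14, limma adjusted p 0.0513 to 0.0669). Hspa5 at base 1582 lost it without the same 5 arrays (-1.41 to -1.24, adjusted p 0.0553 to 0.0744). Hsp90b1 kept its call only without silenced replicates 3 or 4 and otherwise ran from -0.66 to -0.58 (adjusted p 0.0519 to 0.0957). Calr kept it only without control replicate 3 (-0.91) or silenced replicate 4 (-0.75), and Xbp1 at base 1119 only without control replicate 3 (-1.46) or silenced replicate 2 (-1.36). Without control replicate 3, Xbp1 at base 1220 became called (-1.16, adjusted p 0.0171), and without silenced replicate 4, Ern1 at base 1853 did (1.00, adjusted p 0.0103). With both of these arrays left out, an alternative added after the values were seen, 6 member probes were lower and 1 higher, and 2 genes were lower. With the slide row as a block, 1 of the 5 probes stayed called, Hspa5 at base 1702 (-1.42, adjusted p 0.049). None of the 5 changed sign in any of the 20 alternative settings.

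Probes of one gene were then compared with each other, because those of Hspa5 and Xbp1 differed by where they lie. Of the 10 pairs of member probes, 7 lie on 1 transcript (Hspa5, Xbp1 and Canx), while the 3 Ern1 pairs join probes with different accessions and so have no common 5′ to 3′ order. On each array the value of the probe nearer the 5′ end was taken minus that of the probe nearer the 3′ end, and the groups were compared over arrays. For Hspa5 at bases 1582 and 2479 this difference ran from -2.57 to -0.89 in controls and from -3.30 to -2.06 after silencing, a shift of -1.02 (exact two-sided permutation p 0.114, adjusted p 0.163 over all 10 pairs and 0.16 over those 7). For Xbp1 at bases 1119 and 2066 it ran from -3.62 to -2.06 in controls and from -5.27 to -3.46 after silencing, a shift of -1.57 (exact p 0.0571, adjusted p 0.143 over 10 pairs and 0.133 over 7). None of the 10 pairs passed the threshold after adjustment, over all of them or over the 7 of 1 transcript, and 0 had an exact p under 0.05. For Canx, whose probes lie 490 bases apart, the shift was 0.17 (exact p 0.314).

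The same measure over all genes moved in the same direction. Over 4069 transcripts with a pair of probes at least 60 bases apart, the median difference averaged -1.63 ± 0.19 on control arrays and -2.29 ± 0.16 on silenced arrays (SD, n = 4 each), with no overlap between the groups (exact permutation p 0.0286). The probe nearer the 5′ end had the lower change in 80.0% of them. For the 1527 transcripts with probes 300 to 1000 bases apart, which include those of Hspa5, Canx and Xbp1, the medians were -1.49 and -2.32, and the share was 87.4%. Control replicate 3, at -1.91 over all transcripts, was the control nearest to the silenced arrays, and on it the 2 upstream probes of Hspa5 and of Xbp1 differed from the other controls by -1.49 to -1.10 while their 3′ probes differed by 0.02 and -0.07. The part of this shift along transcripts in the lower values of the upstream Hspa5 and Xbp1 probes was not tested.

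**Figure D4:**
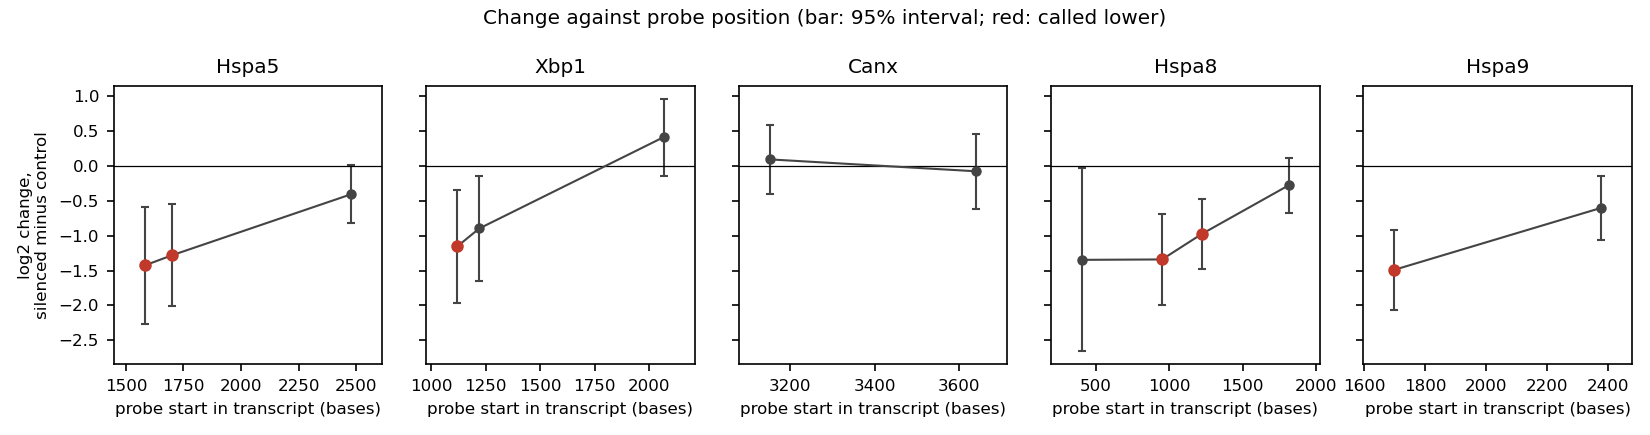
Log2 change, silenced minus control, against the start of each probe in its transcript (bases) for members with several probes on 1 transcript and for the chaperones Hspa8 and Hspa9 of other compartments, with 95% intervals from limma and probes called lower in red. In Hspa5, Xbp1, Hspa8 and Hspa9 the probe nearest the 3′ end has the highest change (-0.40, 0.42, -0.28 and -0.60), and in Canx it does not (-0.08).

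Chaperones that do the same work outside the ER were set beside the members. Of 5 such genes, 3 were called lower by their brightest probe, where 13.9% of all genes were. Hspa8, the constitutive cytosolic Hsp70, fell by 0.98 on the log2 scale (SE 0.22, limma adjusted p 0.0142), Hsp90aa1, the inducible cytosolic Hsp90, by 0.96 (SE 0.21, adjusted p 0.0118), and Trap1, the mitochondrial Hsp90, by 1.03 (SE 0.23, adjusted p 0.0121). The fit for that Hspa8 probe had 3 silenced arrays, as the spot of silenced replicate 3 was an outlier. Hspa9, the mitochondrial Hsp70, changed by -0.60 (SE 0.21, adjusted p 0.0638), and Hsp90ab1, the constitutive cytosolic Hsp90, by -0.06 (SE 0.17, adjusted p 0.838). Other probes of these genes gave other sizes. Hspa8 changed by -1.35, -1.34, -0.98 and -0.28 at bases 405, 950, 1219 and 1812, the probe at base 1699 of Hspa9 was called lower (-1.49), and a second Hsp90aa1 probe changed by -0.46 and was not called.

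The wider ER machinery was read in 5 lists with 110 tested genes, of which 18 were lower (16.4%) and 4 higher (3.64%), with a median change of -0.05. This is near the 13.9% and 6.09% over all genes. With cyclic loess 19 were lower and 21 higher, against 14.2% and 22.7% of all genes. The 18 genes given below with a value, up to 3 in each direction from each list, were called in the same direction under loess.

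Among 32 folding and redox enzymes, 5 were lower and 0 higher, with a median change of 0.01. Of these 32, 8 had an unadjusted p under 0.05 in limma, against 32.8% of all genes (5803 of 17694). Calu, a calcium-binding protein of the secretory pathway, fell by 1.47 on the log2 scale (SE 0.26, limma adjusted p 0.00401). Pdia3, the isomerase that works on the substrates of calnexin and calreticulin, fell by 1.09 (SE 0.20, adjusted p 0.00473), and Cnpy3, a co-chaperone of Hsp90b1, by 1.07 (SE 0.22, adjusted p 0.00819). P4hb and Pdia5 were the other two. Of 19 tested genes of ER-associated degradation, which returns misfolded proteins to the cytosol, 3 were lower and 2 higher, with a median of 0.16, and 5 had an unadjusted p under 0.05. Edem2 and Edem1, which mark glycoproteins for disposal, changed by -1.70 and -0.79, and Aup1, which recruits ubiquitin enzymes, by -1.14. Derl1, a subunit of the exit channel, rose by 0.64 (adjusted p 0.0441) and Ufd1l, which helps extract ubiquitinated proteins, by 0.74 (adjusted p 0.0434).

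Of 24 genes of translocation and N-glycosylation, 2 were lower and 0 higher, with a median of -0.08, and 6 had an unadjusted p under 0.05, against the same 32.8% of all genes. Srprb, the membrane subunit of the receptor for the signal recognition particle, went from 11.59 ± 0.15 to 9.46 ± 0.36 (SD, n = 4 each), a change of -2.13 (limma adjusted p 0.000588). Sec11c, a catalytic subunit of signal peptidase, changed by -1.12. Of 19 genes of ER exit and retrieval, 3 were lower and 0 higher, with a median of -0.30, and 7 had such a p, against that 32.8%. Kdelr2, a receptor that returns escaped chaperones such as Hspa5, Hsp90b1 and Calr to the ER by their C-terminal signal, went from 13.68 ± 0.10 to 11.82 ± 0.13 (SD, n = 4 each), a change of -1.86 (SE 0.18, adjusted p 0.000438). The COPII coat genes Sec13 and Sec23b changed by -0.93 and -0.82.

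Of 16 other tested genes of unfolded protein signalling, 5 were lower and 2 higher, with a median of -0.10, and 11 had an unadjusted p under 0.05, against 32.8% of all genes. Atf6b, the paralog of Atf6, changed by -2.03 (SE 0.25, limma adjusted p 0.000995), Creb3l1, another membrane-bound factor that is released by cleavage, by -1.496, and Atf3, a stress-induced transcription factor, by -1.26. Chac1, an enzyme that degrades glutathione, and Ppp1r15a, a regulatory subunit of a phosphatase, were the other 2 called lower. With cyclic loess 5 of the 16 were lower and 5 higher, against 14.2% and 22.7% of all genes. Those higher with loess included Ddit3, Creb3 and Creb3l2, which rose on average but were not called with quantile normalization. Eif2ak3, which encodes the sensor PERK, rose by 1.00 (SE 0.31, adjusted p 0.0432) and Traf2, an adaptor of activated Ern1, by 0.79 (adjusted p 0.0459).

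**Figure D5:**
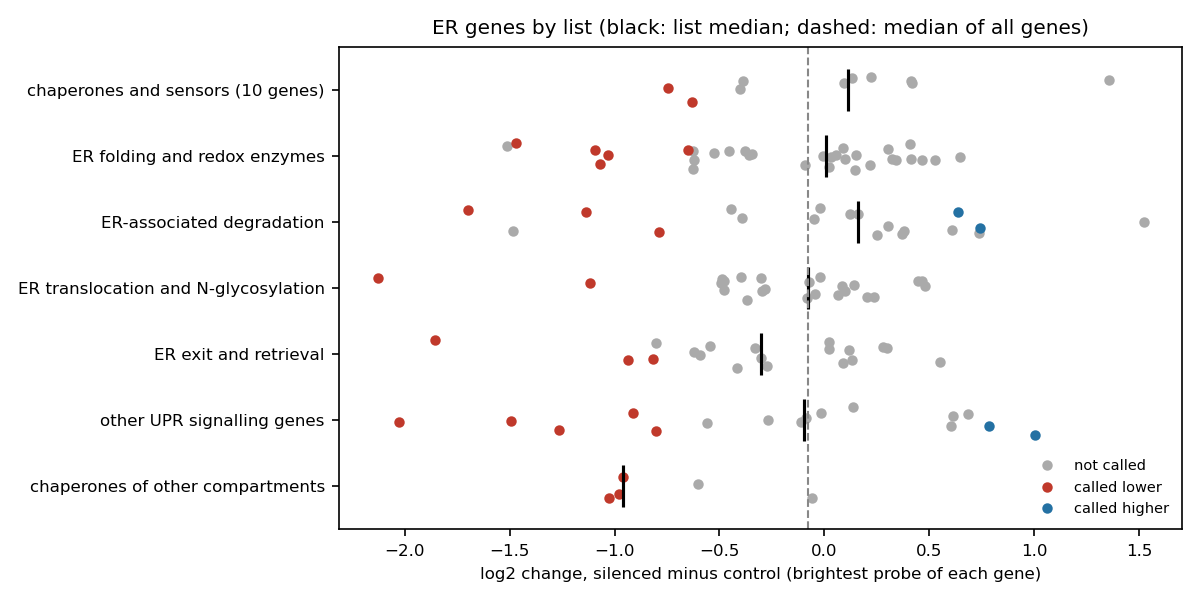
Log2 change, silenced minus control, of each tested gene by its brightest probe, for the 10 members, 5 lists of other ER genes and 5 chaperones of other compartments. Red and blue points were called lower and higher, black bars are list medians (0.11 for the members) and the dashed line is the median of all genes (-0.08).

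Genes that hold the stress element differed in their calls. Of the 5 members with it, Hsp90b1 and Calr were lower and Hspa5, Canx and Pdia6 were not called by their brightest probe, with changes from -0.74 to 0.22 and a median of -0.40, against 13.9% of all genes lower. Among 93 genes of the 5 ER lists with a promoter entry, 5 held ERSE and 2 held ERSE-II. Of these 7, 6 could be tested and 0 were called by limma, with changes from -0.62 for Dnajc3, a co-chaperone of Hspa5 (adjusted p 0.0557), to 0.46 for Ero1lb, an oxidase that supplies disulfide bonds (adjusted p 0.442), whose probe was well above background on 1 control and 1 silenced array only. With cyclic loess, Dnajc3 was called lower (-0.42) and Syvn1, an ER ubiquitin ligase, higher (0.34).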

How the data were processed

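RNA from 4 Pvt1-silenced and 4 negative control cultures was hybridised to one-colour Agilent arrays. The deposited scanner files hold spot intensity values made by the authors with Agilent Feature Extraction (version 10.7.3.1 per the labels, 12.0.0.7 per the file headers), which subtracts background within each array. The deposited series table holds linear signal values of the same arrays (47757 per array), already quantile normalized by the authors, and was an alternative. Probe coordinates are in mm9 as in the files. Following the study's methods, spots not positive and significant were set to missing, log2 intensity was quantile normalized, and spots of a probe were averaged; control and outlier spots were left out. Probes were kept where each group had 3 or more of its 4 values and were fitted in limma 3.58.1 (R 4.3.3) with eBayes, a test chosen here, with Benjamini-Hochberg adjustment over 28649 probes and a threshold of 0.05. Single values were compared by exact two-sided permutation. Figures were drawn with matplotlib 3.10.9.

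In data simulated at this size, with 28649 probes, 8% of 100 probes changed by 1 log2 and 65% of 100 changed by 2 log2 were recovered. No other probe was changed there, and 78 were called. In the data 18.4% of probes were called lower and 4.79% higher. The adjustment is less strict where more probes change, so the simulated recovery is not that of these data. The number of arrays limits the precision, so a member not called may have changed. Correlations within a group were 0.961 to 0.992. The members and gene lists were chosen with earlier results of these data known. The genes named are all members, the 5 chaperones of other compartments, and from each list up to 3 called genes in each direction with the largest change among probes well above background on all arrays. P4hb, Pdia5, Chac1, Ppp1r15a, Ddit3, Creb3, Creb3l2, Dnajc3, Ero1lb, Syvn1 and the cell type markers given with a change fall outside this rule and were named after their values were seen. Promoters and gene names came from RefSeq tables. No genome or protein sequence was used here. Alternatives were other normalizations, background corrections, filters, variance priors, blocks, the methods' t-test (the unequal-variance test named for these arrays, here with Benjamini-Hochberg adjustment) and leaving out arrays.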

Additional observations from a re-analysis of the deposited data

Results flagged for a closer look

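Single arrays were set apart from the others of their group by the gap to the nearest array divided by the range of the group, the ratio of Dixon's test. Of 92 such groups, from all probes of the members, Pvt1 and the chaperones of other compartments and the brightest probes of the other ER genes given with a value, 5 exceeded its critical value, which about 1 in 20 would do by chance. Control replicate 3 measured 4.69 for Pdia4, against 8.74 to 9.38 on the other controls. It measured 14.95 for Hspa8 at base 950, against 15.76 to 15.89, and 10.87 for Hspa8 at base 405, against 13.34 to 13.85. Control replicate 1 measured 15.17 for Hspa5 at base 2479, against 15.23 on the other controls, so this gap is small in size. Silenced replicate 4 measured 14.14 for the Hspa9 probe at base 2377, against 14.65 to 14.73.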

How the results depend on the processing

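Lower member probes (5 as reported) numbered 3 with a shift to the 75th percentile, 3 with cyclic loess, 1 with the authors' series table, 1 without the mask of dim spots, 1 with the slide row as a block, 1 with the methods' t-test, 6 without control replicate 3 and silenced replicate 4, 7 with a robust trended prior, and 0 to 5 with 1 array left out. Higher member probes (0) numbered 3 with loess, 3 with the series table, 3 without the mask, 1 without both of those arrays, and 0 to 1 with 1 array left out. Lower member genes (2) numbered 0 with the 75th percentile, 1 with loess, 1 with the series table, 1 without the mask, 0 with the slide row, 1 with the t-test, 3 with the robust prior, 3 with the mean of a gene's probes, and 0 to 2 with 1 array left out; higher ones (0) numbered 2 with each of loess, the series table and no mask. Higher ER genes (4) numbered 8 with the 75th percentile, 21 with loess, 8 with normexp, 24 with the series table, 24 without the mask, 9 with the robust prior, 0 with the slide row, 2 with the t-test, 15 without both arrays that stood apart, 1 with the mean of all probes, and 0 to 10 with 1 array left out; lower ones (18) numbered 9 with the slide row, 24 with normexp, 24 with the stricter mask, 25 with the robust prior, 25 without both arrays, and 13 to 22 with 1 array left out. Pvt1 ran from -3.12 to -2.69 with 1 array left out and stayed called in every setting run, but the series table gave no value for it.

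The sample titles number the replicates without saying whether same-numbered cultures were paired. Same-numbered deviations correlated at -0.02, 0.15, 0.20 and 0.06, and 2 of 4 silenced arrays correlated best with their own number. With so few arrays these values cannot decide whether the cultures were paired. The fit with a replicate block gave 4 lower member probes, without Hsp90b1 (adjusted p 0.103) and Calr (0.0695) and with Xbp1 at base 1220 (0.0428) in limma, and 0 lower member genes, 14 lower and 0 higher ER genes.

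Signs turned only for probes that were not called. Canx at base 3641 was 0.13 with the 75th percentile, 0.14 with loess, 0.086 with the series table, 0.11 without the mask and -0.27 to 0.020 with 1 array left out. Ern1 at base 3902 was 0.30 with loess, 0.29 with the series table, 0.28 without the mask, 0.27 without both arrays that stood apart, and -0.19 to 0.13 with 1 array left out. Sdf2l1 was -0.091 with the slide row, -0.36 without both arrays, and -0.51 to 0.43 with 1 array left out. Canx at base 3151 was -0.034 to 0.23 with 1 array left out, below 0 only without silenced replicate 3. The causes were not tested. Signal over background limits Pdia4, Atf6 and Ern1: the Ern1 probe at base 1853 could not be fitted with the stricter mask.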
